A study of Mus musculus with 25 samples.

Results

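The 9 genes described here encode pore-forming or modulatory subunits of voltage-gated potassium channels of the Kv1 family (Kcna1, Kcna2, Kcna4 and Kcna6), the Kv3 family (Kcnc1, Kcnc2 and Kcnc4) and the electrically silent Kv9 family (Kcns1 and Kcns2). They were chosen by gene symbol, and all 9 were found among the 24421 symbols of the count files and passed the filter on low counts that left 15912 genes. Expression was measured by RNA sequencing of mouse hippocampus in 25 libraries that fall into 9 groups.

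Kv1 subunits assemble as tetramers on axons and at nerve terminals, where they open at voltages below the spike threshold and limit repetitive firing, and loss of Kcna1 or Kcna2 causes seizures in mice. Kv3 channels open only during the spike and close quickly, which lets fast-spiking interneurons and some other neurons fire at high rates. Kv9 subunits form no channel of their own and instead join Kv2 subunits and change how those channels gate.

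The strain [129S6/SvEvTac x C57BL/6]F1 is written F1 below. Its mice gave, at postnatal day 24 (P24), 3 libraries of Scn1a+/- mice with seizures, 2 libraries of Scn1a+/- mice without seizures and 3 wild-type libraries, also without. On the 129S6/SvEvTac background (here 129S6) at P24 there were 3 libraries labelled Scn1a+/- and 3 labelled wild type. At postnatal day 14 (P14) there were 3 Scn1a+/- and 3 wild-type libraries of F1, and 3 Scn1a+/- and 2 wild-type libraries of 129S6, all labelled free of seizures, as were the P24 129S6 libraries. Scn1a+/- mice lack 1 working copy of Scn1a, the gene of the sodium channel Nav1.1, in every cell and are a model of Dravet syndrome, a childhood epilepsy. The series title speaks of susceptible and resistant strains, and the seizure libraries are all F1. Each seizure library pooled hippocampi of 3 to 4 mice and every other library those of 12 to 16. Levels below are CPM, counts scaled to library size with TMM factors, given as mean ± SD over libraries. A gene is said to have risen, fallen or passed the test only where its adjusted p was under 0.05 in edgeR's quasi-likelihood test, with Benjamini-Hochberg adjustment over all genes tested.

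Scn1a itself was lower in Scn1a+/- than in wild-type libraries of F1 at both ages and of 129S6 at P14. The difference passed the test for the seizure libraries against P24 F1 wild type (edgeR adjusted p = 2.67e-08). Without seizures Scn1a did not pass in P24 F1 (edgeR adjusted p = 0.833), P14 F1 (0.994) or P14 129S6. It averaged 79.9 ± 10.3 CPM in seizure libraries (n = 3), 104 ± 16.0 CPM in seizure-free Scn1a+/- (n = 2) and 127 ± 2.79 CPM in wild type (n = 3) of P24 F1. In P24 129S6 it went against the labels, with 140.1 ± 4.95 CPM in the libraries labelled Scn1a+/- and 110.1 ± 0.74 CPM in those labelled wild type (n = 3 each). The file names of these 6 libraries give the opposite genotype to their labels, and by the file names every sign of that comparison turns round. The word labelled is kept beside each genotype of these libraries. Library totals ran from 7436442 to 25520050 counts. Hippocampal markers were present: the dentate granule cell gene Prox1 averaged 104 ± 7.43 CPM and the CA1 gene Wfs1 156 ± 13.7 CPM in P24 F1 wild type (n = 3 each). The seizure libraries differed more among themselves than other replicates did, and 9 of 9 channel genes, against 79.7% of all genes tested, had a larger SD there than in P24 F1 wild type. As the tissue was bulk, fewer cells of a type and less RNA per cell cannot be told apart in any result below.

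The genes lie on chromosomes 2, 3, 6, 7, 10 and 15 of GRCm38.p6, the assembly of mm10, in the RefSeq annotation. Kcna1 (chr6:126636463-126645801) and Kcna6 (chr6:126708328-126740834) are neighbours 62.5 kb apart, with Kcna5 101 kb on the other side of Kcna1. Kcna2 (chr3:107090883-107115005) lies 52.8 kb from Kcna3 and 68.1 kb from Kcna10, and Kcnc4 (chr3:107438298-107460287) follows Kcna10 after 243 kb. Kcnc1 (chr7:46396219-46438706), Kcnc2 (chr10:112269898-112466304) and Kcns2 (chr15:34837355-34843407) stand apart from the other family genes. Kcna4 (chr2:107290589-107326804) and Kcns1 (chr2:164163619-164171113) share a chromosome but are far from each other. RefSeq lists 4 genes that overlap members, namely Gm38712 at Kcna2, Gm33581 at Kcna6, LOC115486434 at Kcns1 and Gm32970 at Kcns2, and 0 of these 4 symbols were in the count files. The library kit does not mark strand, so reads from such an overlapping gene and from the channel gene cannot be told apart.

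Promoter windows of 300 bases are shown for 4 members with an entry whose levels differed between groups. Kcna2 and Kcnc2 were lower in the seizure libraries, Kcnc1 was higher at P24 than at P14, and Kcns1 was higher in F1 than in 129S6. Each window runs from 250 bases before to 50 bases after an annotated start in the RefSeq table of GRCm38.p6, is written 5′ to 3′ on the strand of the gene, and for Kcnc2 is the first of 4 such windows. That start need not be the outer end of the gene. The Kcna2 window, nearly all of the Kcnc1 window and part of the Kcnc2 window lie within the gene spans given above. Capitals mark matches, on either strand, to the cyclic AMP response element core TGACG, the AP-1 site TGANTCA or the GC box GGGCGG.
Kcna2 (chr3:107101317-107101616, forward strand): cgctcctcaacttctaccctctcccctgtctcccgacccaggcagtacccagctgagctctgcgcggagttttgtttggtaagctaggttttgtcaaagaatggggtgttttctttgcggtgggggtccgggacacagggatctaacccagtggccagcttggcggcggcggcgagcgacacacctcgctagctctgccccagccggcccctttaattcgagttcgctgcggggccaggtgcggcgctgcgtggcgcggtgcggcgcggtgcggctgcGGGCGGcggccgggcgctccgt
Kcnc2 (chr10:112269767-112270066, forward strand): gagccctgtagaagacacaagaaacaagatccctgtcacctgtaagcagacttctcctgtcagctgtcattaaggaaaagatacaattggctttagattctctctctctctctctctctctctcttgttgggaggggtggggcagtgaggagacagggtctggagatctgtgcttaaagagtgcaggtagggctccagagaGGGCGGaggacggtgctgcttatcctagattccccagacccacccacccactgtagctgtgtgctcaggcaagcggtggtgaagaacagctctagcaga
Kcnc1 (chr7:46396218-46396517, forward strand): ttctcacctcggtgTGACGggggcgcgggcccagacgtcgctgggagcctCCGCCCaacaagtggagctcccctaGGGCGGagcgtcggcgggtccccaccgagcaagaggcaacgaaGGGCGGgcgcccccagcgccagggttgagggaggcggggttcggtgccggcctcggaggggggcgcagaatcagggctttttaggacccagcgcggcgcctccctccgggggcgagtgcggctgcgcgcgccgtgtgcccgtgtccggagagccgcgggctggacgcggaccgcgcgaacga
Kcns1 (chr2:164171064-164171363, reverse strand): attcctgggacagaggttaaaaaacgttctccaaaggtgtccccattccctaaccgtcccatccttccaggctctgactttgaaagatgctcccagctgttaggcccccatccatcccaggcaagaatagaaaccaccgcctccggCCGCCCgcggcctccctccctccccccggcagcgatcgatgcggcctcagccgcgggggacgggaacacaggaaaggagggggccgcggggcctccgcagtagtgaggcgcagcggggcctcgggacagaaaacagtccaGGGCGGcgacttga
The Kcnc1 window held 3 GC boxes and 1 response element core, the Kcns1 window 2 GC boxes, and the Kcna2 and Kcnc2 windows 1 GC box each. The other 3 Kcnc2 windows held none of the motifs. Over 32851 promoter windows of the table, 35.7% held the GC box letters, 20.8% the response element core and 7.81% the AP-1 letters. Among the other members with an entry, Kcna4 had 3 GC boxes, Kcnc4 had 1 GC box and 1 response element core, and Kcna6 had 1 response element core. No window of these 7 genes held the AP-1 letters. Such matches describe the letters of the window and not bound sites. Kcna1 and Kcns2 had no entry.

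Per length, Kcna1 was the most abundant of the 9 genes in 25 of 25 libraries and Kcns1 the least in 25 of 25. Levels per length are CPM per kilobase of exon, with exon lengths taken by symbol from GENCODE vM39. In P24 F1 wild type, Kcna1, the Kv1.1 subunit, averaged 51.6 ± 1.49 and Kcna2, the Kv1.2 subunit, 20.4 ± 0.505 CPM per kilobase (n = 3). Kcnc1, the Kv3.1 subunit of fast-spiking cells, followed at 17.6 ± 0.528 CPM per kilobase. The order Kcna1, Kcna2, Kcnc1 at the top held in 24 of 25 libraries, the exception being seizure library 2.

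In the middle of that range, per length and in P24 F1 wild type, Kcnc4 (Kv3.4) averaged 13.8 ± 0.0144 CPM per kilobase and Kcnc2 (Kv3.2) 12.4 ± 0.555 CPM per kilobase. Kcna6 (Kv1.6) averaged 11.9 ± 0.565 CPM per kilobase, so Kcnc2 and Kcna6 lay within their spread of each other. Kcns2 (Kv9.2) averaged 6.75 ± 0.308 and Kcna4 (Kv1.4) 5.95 ± 0.368 CPM per kilobase, which is a narrow gap beside those SDs. Kcns1 (Kv9.1) averaged 2.35 ± 0.246 CPM per kilobase and rested on 33 to 185 counts per library over the series. Of the family genes not among the 9, Kcna7 and Kcna10 were near 0, with at most 4 and 7 counts in a library.

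**Figure D1:**
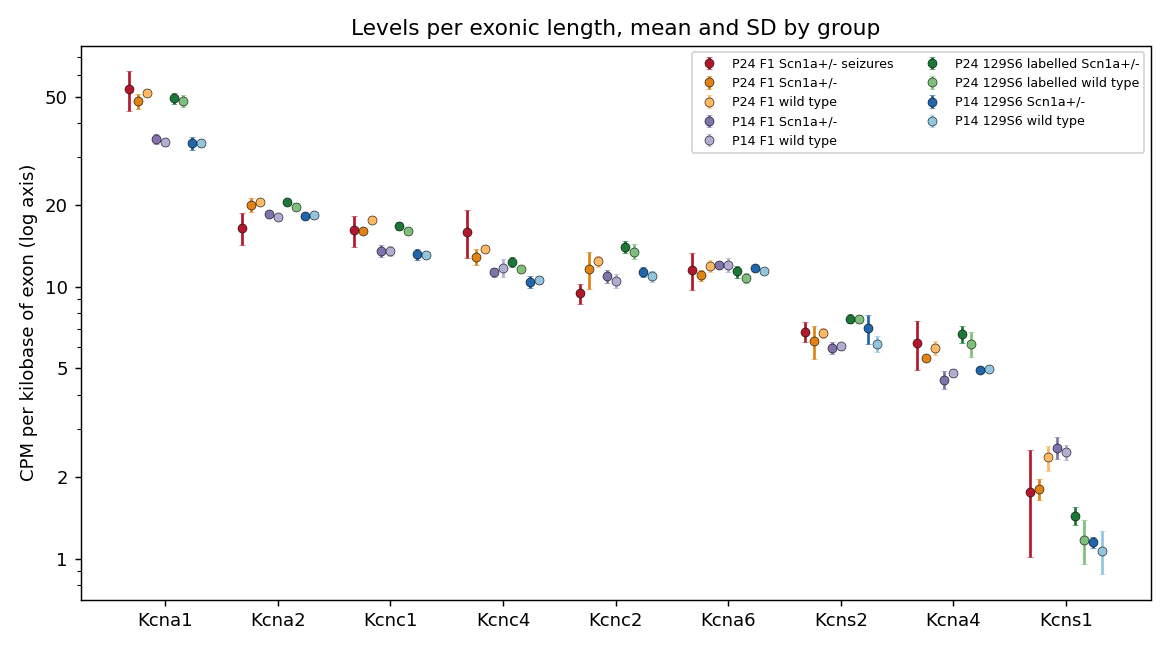
Level of each of the 9 genes per kilobase of exon (y axis, CPM per kilobase, log scale) in the 9 groups, with points for group means and bars for 1 SD over the 2 or 3 libraries of a group. Kcna1 lies at the top and Kcns1 at the bottom of every group, at 51.6 and 2.35 CPM per kilobase on average in P24 F1 wild type.

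In the seizure libraries, 2 of 9 channel genes were lower than in P24 F1 wild type and 0 were higher, where 22.5% of all genes tested passed the test (12.4% higher and 10.1% lower). The 2 genes were Kcna2, a Kv1 subunit of axons, and Kcnc2, a Kv3 subunit found in parvalbumin and somatostatin interneurons. The median log2 fold change over the 9 genes was -0.05, against 0.01 over all genes tested. This comparison combines genotype with seizures, and the wild-type mice had neither.

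Among Kv1 genes, Kcna2 stood at 209.7, 201 and 256 CPM in the seizure libraries, against 282, 277 and 268 CPM in wild type. The 3 seizure libraries all lay below the 3 wild-type libraries. The difference was -0.31 ± 0.07 on the log2 scale (SE, edgeR adjusted p = 0.000683), or 0.81 of the wild-type level. Kcna2 missed the threshold when only these groups were fitted (-0.31, edgeR adjusted p = 0.0897), and it passed in each fit that left out 1 library.

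Kcna1, the partner of Kcna2 in many axonal channels, stood at 206, 269.7 and 286 CPM in the seizure libraries, against 255, 243 and 242 CPM in wild type. Seizure library 1 was below and the other two were above every wild-type library, and the gene did not pass the test (edgeR adjusted p = 0.763). The 95% interval of its log2 fold change ran from -0.12 to 0.20. Within a library, counts of Kcna1 over counts of Kcna2 gave ratios of 0.981, 1.34 and 1.12 in the seizure libraries, against 0.906, 0.877 and 0.904 in wild type. The ratio carries the exon lengths of both genes and serves to compare libraries. It was chosen after its values were seen and is a description. It was higher in each seizure library than in each library of every other group.

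Kcna4, which forms fast-inactivating A-type channels, had 25.0, 38.2 and 33.2 CPM in the seizure libraries, against 32.7, 31.0 and 28.9 CPM in wild type. Kcna6 had 66.9, 58.8 and 79.8 CPM in the seizure libraries, against 74.5, 70.8 and 67.8 CPM in wild type. Both sets overlapped, and neither gene passed the test (edgeR adjusted p = 0.742 for Kcna4 and 0.684 for Kcna6). Without seizure library 3, Kcna6 was at -0.19 on the log2 scale (edgeR adjusted p = 0.0327).

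Among Kv3 genes, Kcnc2 stood at 76.5, 75.8 and 88.0 CPM in the seizure libraries, against 110.0, 105 and 101 CPM in wild type. No seizure library reached a wild-type library. For Kcna2 and Kcnc2 alone among the 9 were all seizure libraries below all wild-type libraries, as for 15.6% of all genes tested. The difference was -0.39 ± 0.08 on the log2 scale (SE, edgeR adjusted p = 0.000219), or 0.76 of the wild-type level, and it passed under 10 of 10 alternatives. Kcnc1 had 148, 155 and 188 CPM in the seizure libraries, against 184, 180.2 and 173 CPM in wild type, and did not pass the test (-0.13 ± 0.07, edgeR adjusted p = 0.196). Seizure library 3 was above every wild-type library while the other two were below, and without it Kcnc1 was at -0.25 (edgeR adjusted p = 0.0011).

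Kcnc4, whose channels inactivate fast, was the Kv3 gene with higher values in the seizure libraries. It had 61.7, 91.9 and 87.3 CPM there, against 69.6, 69.6 and 69.5 CPM in wild type. Libraries 2 and 3 were above all wild-type libraries and library 1 was below them, and the difference of 0.21 ± 0.09 did not pass (edgeR adjusted p = 0.0974). Without seizure library 1 it was 0.36 (edgeR adjusted p = 0.000233). Counts of Kcnc4 over counts of Kcnc2 gave 0.807, 1.21 and 0.992 in the seizure libraries, against 0.633, 0.665 and 0.691 in wild type, a ratio also chosen after its values were seen.

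Kcns1, a modulatory Kv9 subunit, had 3.91, 4.42 and 8.18 CPM in the seizure libraries, against 8.24, 6.82 and 7.01 CPM in wild type. Libraries 1 and 2 were under the wild-type range and library 3 was inside it, and the difference of -0.42 ± 0.18 did not pass (edgeR adjusted p = 0.0997). Without seizure library 3 it was -0.83 (edgeR adjusted p = 0.00022). Kcns2 had 46.1, 40.6 and 47.5 CPM in the seizure libraries, against 46.5, 43.6 and 42.6 CPM in wild type, with overlapping groups (edgeR adjusted p = 0.906).

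Seizure library 3 held the highest of the 3 values for 7 of 9 genes and seizure library 2 for the other two, Kcna4 and Kcnc4. Cell type markers moved in these libraries as well. The 5 astrocyte markers summed to 3609 to 4514 CPM in seizure libraries, against 1799 to 1939 CPM in wild type, with 3 of 5 risen, Gfap by 2.31 on the log2 scale (edgeR adjusted p = 5.24e-17), and 2 of 5 fallen. Without Gfap the other 4 summed to 1147 to 1373 CPM in seizure libraries, against 1252 to 1315 CPM in wild type. The 12 myelin markers summed to 10741 to 16804 CPM in seizure libraries, against 14710 to 16979 CPM in wild type, and 7 of 12 fell. The 5 dentate granule cell markers summed to 269.9 to 352 CPM in seizure libraries, against 377 to 399.7 CPM in wild type, with 3 fallen and 1 risen, and of 5 CA1 markers 3 fell.

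Of 10 markers of interneurons, the cells in which Kcnc1 and Kcnc2 are best known, 1 rose and 0 fell. They summed to 586, 546 and 819 CPM in the seizure libraries, against 686, 588 and 560.1 CPM in wild type. The library with the highest sum was library 3. Among the seizure libraries it also held the highest value of every channel gene but Kcna4 and Kcnc4, and not of Kcnc1 and Kcnc2 alone. Gad2 rose (0.40 ± 0.09, edgeR adjusted p = 0.00176), and Pvalb, which marks fast-spiking cells, was at -0.10 ± 0.09 (edgeR adjusted p = 0.507). The part of these marker changes in the channel results was not tested.

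**Figure D2:**
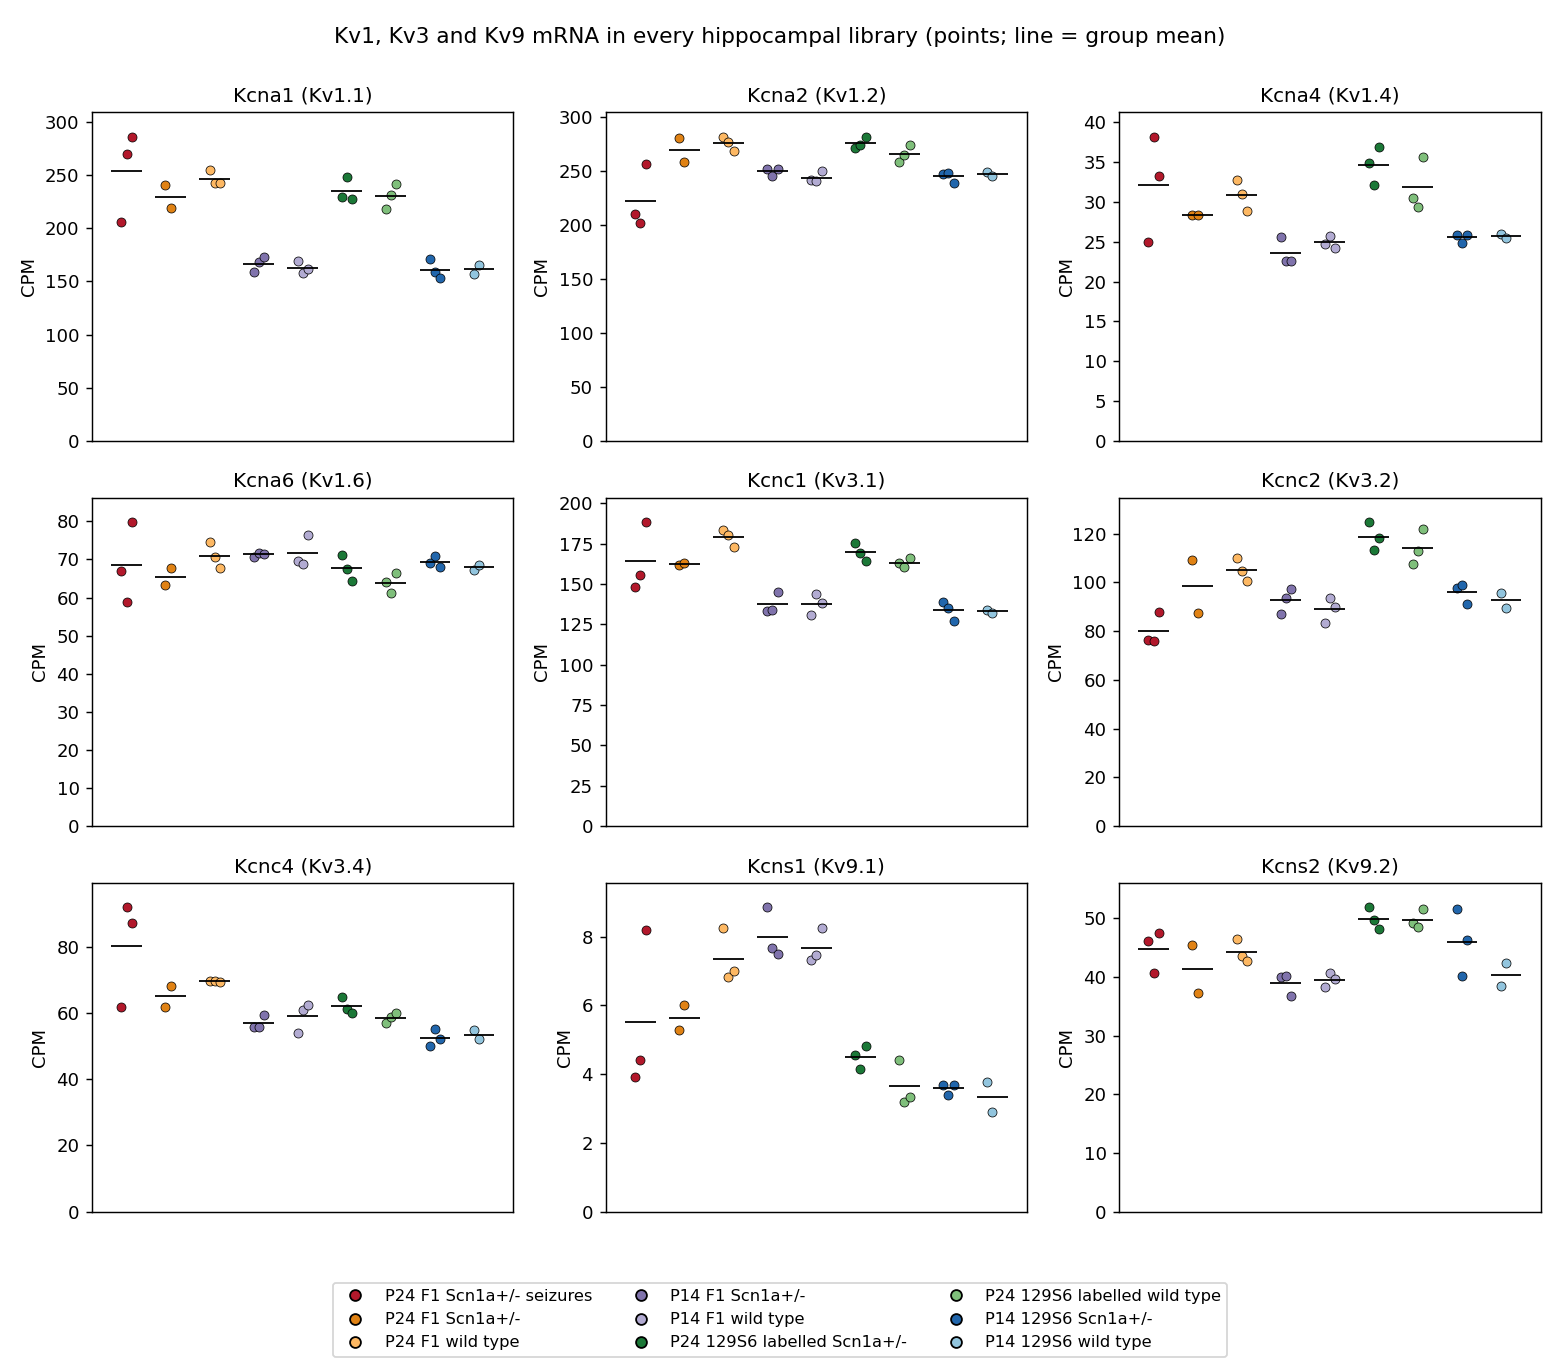
Level of each of the 9 genes (y axis, CPM, starting at 0) in the 25 libraries, 1 point per library with a line at each group mean, in the 9 groups by colour. The seizure libraries are spread widely, and all 3 lie below wild type for Kcna2 (201 to 256 CPM against 268 to 282 CPM) and Kcnc2 (75.8 to 88.0 CPM against 101 to 110.0 CPM).

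Set against the seizure-free Scn1a+/- libraries of the same strain and age, 3 of 9 genes passed the test, where 15.7% of all genes tested did (8.72% higher and 7% lower). The comparison shares its seizure libraries with the one above. Kcna2 and Kcnc2 were lower and Kcnc4 was higher. The median over the 9 genes was 0.06 on the log2 scale, against 0.01 over all genes tested.

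Kcna2 stood at 209.7, 201 and 256 CPM in the seizure libraries, against 280.5 and 258 CPM in seizure-free Scn1a+/-. The highest seizure library lay just under the lower seizure-free library, and the difference was -0.28 ± 0.07 (edgeR adjusted p = 0.00858). Kcnc2 had 109 and 87.5 CPM in the seizure-free libraries, and the lower of these lay under the highest seizure library at 88.0 CPM (-0.29 ± 0.09, edgeR adjusted p = 0.0169). Kcna2 was the only one of the 9 whose libraries did not overlap, as for 16% of all genes tested in each direction. Kcnc4 had 61.8 and 68.2 CPM in the seizure-free libraries, between the lowest and the other seizure libraries (0.30 ± 0.10, edgeR adjusted p = 0.042). None of these 3 calls held when only the compared groups were fitted (edgeR adjusted p = 0.426 for Kcna2, 0.342 for Kcnc2 and 0.425 for Kcnc4) or without seizure-free library 1 (edgeR adjusted p = 0.1, 0.406 and 0.341 in the same order), where Kcnc2 was at -0.15. Kcnc4 also missed the threshold without seizure library 2, without seizure library 3 and without seizure-free library 2 (edgeR adjusted p = 0.201, 0.144 and 0.0918).

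The remaining 6 genes did not pass. Kcna1 had 241 and 219 CPM, Kcna4 28.4 and 28.4 CPM and Kcns1 5.28 and 6.00 CPM in the seizure-free libraries, each inside the range of the seizure libraries. Without seizure library 1, Kcna1 was at 0.27 (edgeR adjusted p = 0.00882), Kcna4 at 0.32 (edgeR adjusted p = 0.0246) and Kcnc4 at 0.45 (edgeR adjusted p = 6.66e-05), and Kcna1 and Kcna4 passed only then among the 9 alternatives.

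**Figure D3:**
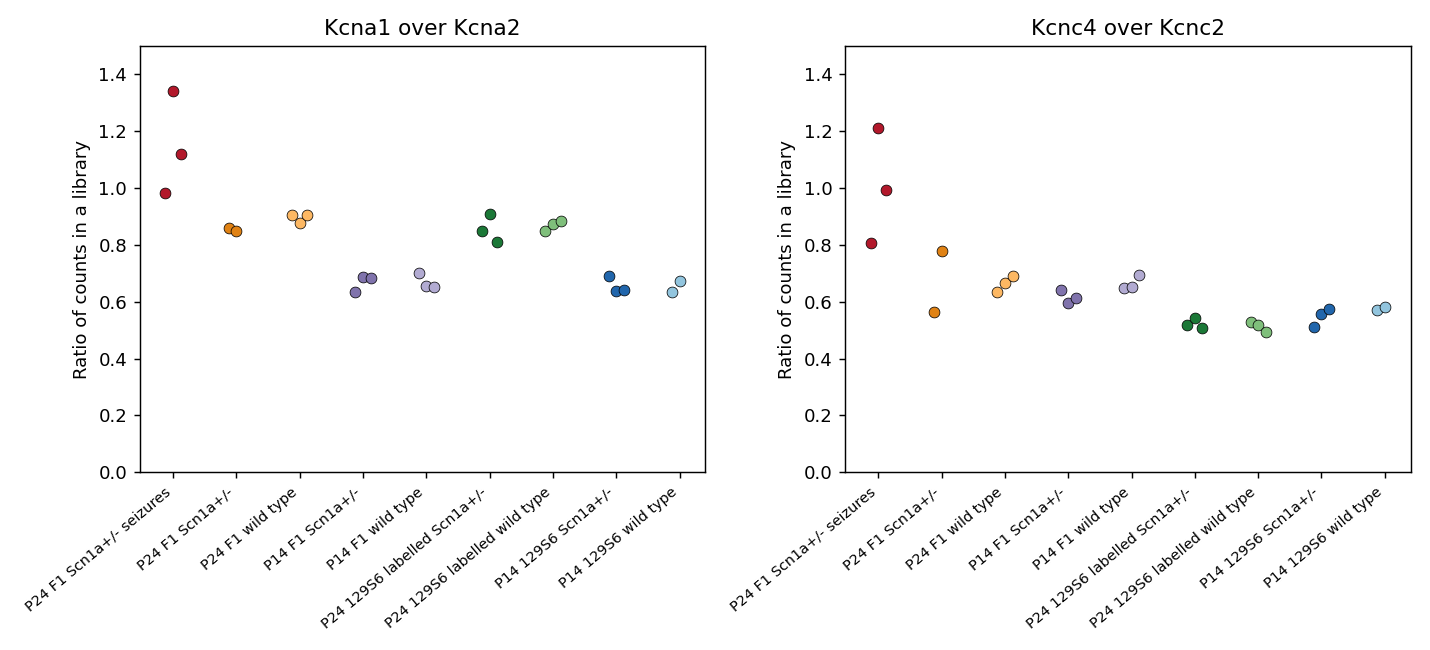
Ratio of counts within a library (y axis, no unit) of Kcna1 over Kcna2 on the left and Kcnc4 over Kcnc2 on the right, 1 point per library, in the 9 groups. The 3 seizure libraries are the 3 highest points in both plots, from 0.981 to 1.34 on the left and from 0.807 to 1.21 on the right.

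Without seizures, genotype gave 0 of 9 passing genes in each of the 4 comparisons. Over all genes tested 0% passed in each of them, with 889 (P24 F1), 471 (P24 129S6 as labelled), 724 (P14 F1) and 391 (P14 129S6) genes at an unadjusted p under 0.05. Scn1a itself passed in none of these comparisons in the same model, so a lack of passing genes does not show that genotype left levels unchanged. DESeq2 also called 0 genes in each, while the model without the seizure libraries called 200 genes in P24 F1, 0 of the 9 among them. In P24 F1, all 9 genes had negative log2 fold changes in seizure-free Scn1a+/- minus wild type, from -0.37 to -0.03. Their median was -0.11, against -0.003 over all genes tested, and the 9 values share the same libraries. For 6 of 9 genes both Scn1a+/- libraries lay below all 3 wild-type libraries, where 14.8% of all genes tested did so.

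The widest of these gaps was that of Kcns1, with 5.28 and 6.00 CPM in seizure-free Scn1a+/- and 8.24, 6.82 and 7.01 CPM in wild type (-0.37 ± 0.22, edgeR adjusted p = 0.833). Kcnc1 had 162 and 163 CPM in seizure-free Scn1a+/- and 184, 180.2 and 173 CPM in wild type (-0.14 ± 0.08, edgeR adjusted p = 0.833). Kcna1, Kcna4, Kcna6 and Kcnc4 were the other 4 genes whose libraries did not overlap. The Scn1a+/- side of this comparison had 2 libraries. Some marker levels also separated between these 5 libraries, although 0 markers passed the test. Of all genes tested, 14.3% separated upward and 14.8% downward. The 7 choroid plexus markers summed to 658 to 748 CPM in seizure-free Scn1a+/- and 935 to 1020 CPM in wild type. Ttr made up most of this sum, and the mean of Otx2 went the other way (5.55 against 4.91 CPM). Gfap ran from 749 to 861 CPM in seizure-free Scn1a+/- and from 546 to 624 CPM in wild type, and the CA1 marker Wfs1 averaged 113 ± 24.4 CPM in seizure-free Scn1a+/- (SD, n = 2) and 156 ± 13.7 CPM in wild type (SD, n = 3). The 12 myelin markers overlapped, at 15529 to 16108 CPM in seizure-free Scn1a+/- and 14710 to 16979 CPM in wild type. The part of these markers in the channel values was not tested.

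In P24 129S6, all 9 genes had positive values in labelled Scn1a+/- minus labelled wild type, from 0.01 to 0.31. Their median was 0.06, against 0.005 over all genes tested. For 0 of 9 did the libraries separate, where 5.84% of all genes tested separated upward and 4.88% downward. By the file names these 9 values are negative. At P14 the values were split, with 4 positive and 5 negative in F1 (-0.08 to 0.06) and 5 positive and 4 negative in 129S6 (-0.02 to 0.19). For 0 of 9 genes did the P14 libraries separate by genotype in either strain, where 6.72% of all genes tested separated upward and 6% downward in F1, and 9.59% and 9.38% in 129S6. The 95% intervals at P14 included 0 for each of the 9 genes and reached up to 0.62 for Kcns1, the gene with the fewest counts.

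**Figure D4:**
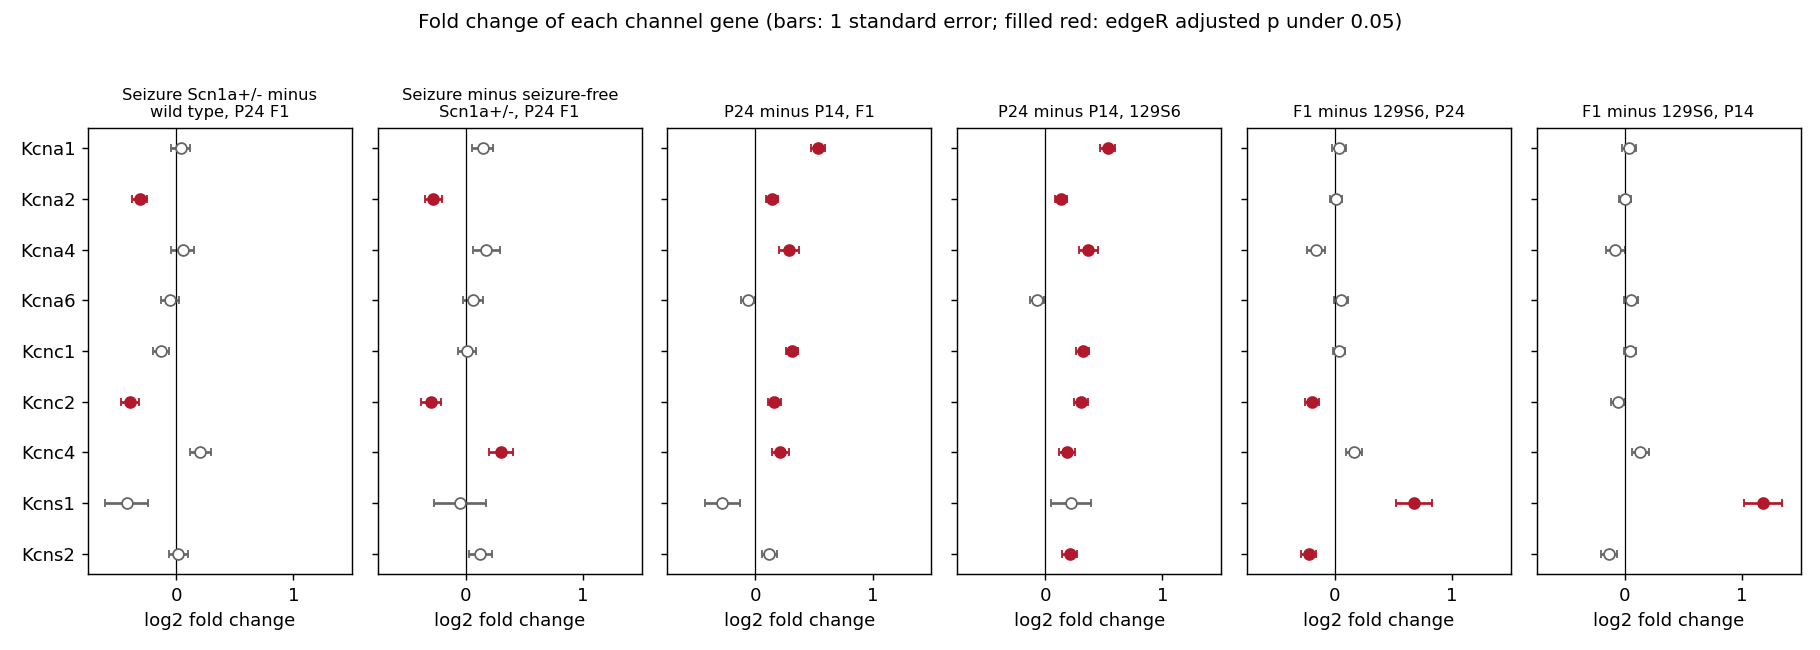
Log2 fold change (x axis) of each of the 9 genes (rows) in 6 comparisons, with bars of 1 standard error and red filled points for an edgeR adjusted p under 0.05. Seizure comparisons hold few passing genes, while 6 genes in F1 and 7 in 129S6 were higher at P24 than at P14, and Kcns1 has the widest strain difference, 1.18 at P14.

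Between P24 and P14, with seizure libraries left out and both genotypes averaged, 6 of 9 genes rose and 0 fell in F1, where 38.4% of all genes tested passed (19% higher and 19.4% lower). In 129S6, 7 of 9 rose and 0 fell, where 34.3% of all genes tested passed (17.3% higher and 17.1% lower). Kcna1, Kcna2, Kcna4, Kcnc1, Kcnc2 and Kcnc4 rose in both strains, and Kcns2 in 129S6. The median over the 9 genes was 0.16 in F1 and 0.22 in 129S6, against 0.00 and 0.01 over all genes tested. For 4 of 9 genes in F1 and 6 of 9 in 129S6 all P24 libraries lay above all P14 libraries, as for 12.3% and 12.1% of all genes tested. As the P24 129S6 libraries of both labels enter equally, the mismatch of their genotype labels does not touch this comparison.

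Kcna1 had the largest age difference of the 9. In F1 it stood at 241, 219, 255, 243 and 242 CPM at P24, against a lowest, median and highest value of 158, 165 and 173 CPM over 6 libraries at P14. In 129S6 the lowest, median and highest values were 218, 230.5 and 249 CPM over 6 libraries at P24, against 171, 158, 153, 157 and 165 CPM at P14. No P24 library came near a P14 library in either strain. The log2 fold change was 0.53 ± 0.06 in F1 (edgeR adjusted p = 2.13e-08) and 0.53 ± 0.06 in 129S6 (2.87e-08).

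Kcna2 had a smaller difference. It ran from 258 to 282 CPM at P24 and from 240.3 to 252 CPM at P14 in F1, and from 258 to 281 CPM at P24 and from 239 to 248 CPM at P14 in 129S6. The ages did not overlap in either strain. The difference was 0.14 ± 0.05 in both (edgeR adjusted p = 0.0228 in F1 and 0.0321 in 129S6), and it missed the threshold in F1 without P24 seizure-free Scn1a+/- library 1 (edgeR adjusted p = 0.109). In 129S6 it missed the threshold under 9 of 16 alternatives. These were no filter on low counts and the fits without library 2 or 3 of either P24 label, library 2 or 3 of P14 Scn1a+/-, or either P14 wild-type library (edgeR adjusted p = 0.0507 to 0.115). The count ratio of Kcna1 to Kcna2 was 0.81 to 0.908 over the P24 libraries without seizures and 0.633 to 0.701 at P14.

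Kcna4 had 28.4 to 32.7 CPM at P24 and 22.5 to 25.8 CPM at P14 in F1, and 29.4 to 37.0 CPM at P24 and 24.9 to 26.0 CPM at P14 in 129S6. It rose by 0.29 ± 0.08 in F1 (edgeR adjusted p = 0.00572) and by 0.37 ± 0.08 in 129S6 (edgeR adjusted p = 0.000532). Kcna6 was the Kv1 gene with no rise. It had 63.2 to 74.5 CPM at P24 and 68.7 to 76.4 CPM at P14 in F1, and the 95% interval of its difference ran from -0.19 to 0.06 in each strain (edgeR adjusted p = 0.405 in F1 and 0.426 in 129S6).

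The 3 Kv3 genes rose together. Kcnc1 stood at 162, 163, 184, 180.2 and 173 CPM at P24 in F1, against a lowest, median and highest value of 131, 136 and 145 CPM at P14. In 129S6 it ran from 161 to 175 CPM at P24 and from 127 to 139 CPM at P14, so that the ages were clear of each other in both strains. Its rise was 0.31 ± 0.05 in F1 (edgeR adjusted p = 1.51e-05) and 0.32 ± 0.05 in 129S6 (1.28e-05). Kcna1, Kcna4 and Kcnc1 passed under 16 of 16 alternatives in each strain.

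Kcnc2 had 109, 87.5, 110.0, 105 and 101 CPM at P24 in F1, against 83.5 to 97.1 CPM at P14, with an overlap through seizure-free Scn1a+/- library 2. Its rise of 0.16 ± 0.06 in F1 (edgeR adjusted p = 0.0272) missed the threshold under 4 of 16 alternatives. It was 0.08 without seizure-free Scn1a+/- library 1 (edgeR adjusted p = 0.308) and 0.14 to 0.15 without library 1 of P24 wild type, P14 Scn1a+/- or P14 wild type (edgeR adjusted p = 0.0585 to 0.0758). In 129S6 it had 108 to 125 CPM at P24 and 89.5 to 98.9 CPM at P14 and rose by 0.30 ± 0.06 (edgeR adjusted p = 0.000104). Kcnc4 had 61.8 to 69.6 CPM at P24 and 54.1 to 62.4 CPM at P14 in F1, with a rise of 0.21 ± 0.07 (edgeR adjusted p = 0.0161) that missed the threshold without P24 seizure-free Scn1a+/- library 2 (0.117) or P14 wild-type library 1 (0.051). In 129S6 it had 57.0 to 64.8 CPM at P24 and 49.9 to 55.1 CPM at P14, with a rise of 0.19 ± 0.07 (edgeR adjusted p = 0.0399) that missed the threshold under 12 of 16 alternatives. These were DESeq2, RLE size factors and the fit without each library but P14 Scn1a+/- library 2 (adjusted p = 0.05 to 0.159).

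The Kv9 genes differed from this pattern in part. Kcns2 had 37.2 to 46.5 CPM at P24 and 36.8 to 40.7 CPM at P14 in F1 (0.12 ± 0.07, edgeR adjusted p = 0.157), and at 0.19 passed without P24 seizure-free Scn1a+/- library 2 (edgeR adjusted p = 0.0393). In 129S6 it had 48.1 to 51.8 CPM at P24 and 38.4 to 51.5 CPM at P14 and rose by 0.21 ± 0.06 (edgeR adjusted p = 0.0108), which missed the threshold without P14 wild-type library 1 (0.0889). Kcns1 did not pass in either strain, with -0.28 ± 0.15 in F1 (edgeR adjusted p = 0.134, and 0.041 with only the compared groups) and 0.22 ± 0.17 in 129S6 (edgeR adjusted p = 0.334). For 0 of 9 genes did the age difference itself differ between the strains, where 0.00628% of all genes tested did (1 gene), and that of Kcns1 was -0.50 ± 0.22 (edgeR adjusted p = 0.592).

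Markers of other cells moved with age in the same libraries. All 12 myelin markers rose in both strains, and they summed to 15615 CPM in P24 F1 wild type, against 7518 CPM in P14 F1 wild type. Of 10 interneuron markers, Pvalb, Erbb4 and Gad1 rose and Lhx6 and Sst fell in F1, and Pvalb, Erbb4 and Gad1 rose and Lhx6 fell in 129S6. Pvalb, the marker of fast-spiking cells in which Kcnc1 is abundant, rose by 0.70 ± 0.08 in F1 (edgeR adjusted p = 6.96e-09) and by 0.67 ± 0.08 in 129S6 (edgeR adjusted p = 1.96e-08). Of 5 astrocyte markers 3 fell in each strain, among them Aqp4 (-0.70 ± 0.06 in F1 and -0.71 ± 0.05 in 129S6), and of 5 microglia markers 3 fell in F1 and 4 in 129S6. Of 9 thalamus and habenula markers tested, 4 fell and 1 rose in F1 and 6 fell and 1 rose in 129S6. Of 5 dentate markers 4 rose in each strain, while Prox1 fell in 129S6 (-0.16 ± 0.05, edgeR adjusted p = 0.0211). In F1 Prox1 was at -0.11 ± 0.05 (edgeR adjusted p = 0.112). The part of these changes in the rise of the channel genes was not tested.

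Between strains, with seizure libraries left out and both genotypes averaged, Kcns1 was higher in F1 than in 129S6 at both ages. At P24, 1 of 9 genes was higher and 2 were lower in F1, where 6.33% of all genes tested passed (3.46% higher and 2.87% lower). At P14, 1 of 9 was higher and 0 were lower, where 3.7% of all genes tested passed (2.04% higher and 1.66% lower).

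Kcns1 stood at 5.28, 6.00, 8.24, 6.82 and 7.01 CPM in F1 at P24, against a lowest, median and highest value of 3.18, 4.28 and 4.80 CPM over 6 libraries of 129S6. At P14 its lowest, median and highest values were 7.32, 7.58 and 8.84 CPM over 6 libraries of F1, against 2.91, 3.67 and 3.77 CPM over 5 libraries of 129S6. No F1 library without seizures reached down to a 129S6 library at either age, as for 3.3% of all genes tested at P24 and 2.35% at P14. The P24 F1 seizure libraries, left out here, had 3.91, 4.42 and 8.18 CPM, the first 2 of them inside the P24 129S6 range. The log2 fold change was 0.68 ± 0.15 at P24 (edgeR adjusted p = 0.0049) and 1.18 ± 0.16 at P14 (6.75e-06); at P14 the level was 2.27 times that of 129S6. It passed under 16 of 16 alternatives at P14 and 15 of 16 at P24, the exception being the fit without P24 F1 seizure-free Scn1a+/- library 2 (edgeR adjusted p = 0.0681). Reads of both strains were aligned to the C57BL/6J-based build mm10, and the part of alignment in this difference was not tested.

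The other strain differences were small. Kcnc2 had 109, 87.5, 110.0, 105 and 101 CPM in F1 at P24, against 108 to 125 CPM in 129S6, with overlapping libraries (-0.20 ± 0.06, edgeR adjusted p = 0.0361). Kcns2 had 45.4, 37.2, 46.5, 43.6 and 42.6 CPM in F1 at P24, against 48.1 to 51.8 CPM in 129S6, and all F1 libraries lay below all 129S6 libraries, as for 2.92% of all genes tested (-0.22 ± 0.06, edgeR adjusted p = 0.0296). Each of these 2 genes missed the threshold under 7 of 16 alternatives, all of them fits without 1 library. Without P24 F1 seizure-free Scn1a+/- library 2, Kcnc2 was at -0.11 (edgeR adjusted p = 0.482) and Kcns2 at -0.14 (0.396). Both also missed it without wild-type library 2 or 3 of F1, labelled Scn1a+/- library 1 or labelled wild-type library 3 (edgeR adjusted p = 0.0689 to 0.113). Kcnc2 missed it further without labelled Scn1a+/- library 3 or labelled wild-type library 2 (0.0784 and 0.0659), and Kcns2 without labelled Scn1a+/- library 2 or labelled wild-type library 1 (0.0588 and 0.0556). Kcnc4 was at 0.16 ± 0.07 at P24 (edgeR adjusted p = 0.175) and passed with only the compared groups (0.0119) or without the seizure libraries (0.0101). Kcna1 had a strain difference of 0.03 at P24 and 0.04 at P14, that of Kcna2 was 0.01 at both ages, and the 95% interval of Kcna2 at P24 ran from -0.09 to 0.11.

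The genes that work with these channels were read from 3 lists, chosen with earlier results of these data known. Counts over these lists are descriptions, and alternative fits are not given for them. Of 13 genes for Kv1 beta subunits and proteins of the axonal Kv1 complex, 0 rose and 8 fell in seizure libraries against P24 F1 wild type, where 12.4% of all genes tested rose and 10.1% fell. The median was -0.27 on the log2 scale, against 0.01 over all genes tested. Kcnab1, a beta subunit that docks on Kv1 channels and speeds their inactivation, had -0.52 ± 0.09 (edgeR adjusted p = 5.37e-05). Lgi3, which belongs to the LGI family of secreted neuronal proteins, had -0.68 ± 0.08 (5.54e-08), and Adam22, a receptor of LGI proteins, had -0.33 ± 0.07 (edgeR adjusted p = 0.000755). Cntnap2, which clusters Kv1 channels beside the node of Ranvier, had -0.48 ± 0.09 (edgeR adjusted p = 0.000122), and Kcnab3, Adam23, Cntn2 and Kcnab2 also fell.

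Against seizure-free Scn1a+/- libraries 3 of the 13 fell, Lgi3 (-0.46 ± 0.09, edgeR adjusted p = 0.000249), Adam22 (-0.31 ± 0.08, 0.00705) and Kcnab1 (-0.36 ± 0.10, 0.0143), and 0 rose, where 7% of all genes tested fell and 8.72% rose. With age 8 of 13 rose in each strain, while 3 fell in F1 and 2 in 129S6, with a median of 0.32 in F1 and 0.31 in 129S6. Of all genes tested, 19% rose and 19.4% fell with age in F1, and 17.3% rose and 17.1% fell in 129S6. Kcnab2, the main beta subunit of brain Kv1 channels, rose by 0.64 ± 0.05 in each strain (edgeR adjusted p = 3.16e-12 in F1 and 4.34e-12 in 129S6). Cntn2, the axonal partner of Cntnap2, rose by 0.64 ± 0.06 in F1 and 0.63 ± 0.06 in 129S6 (edgeR adjusted p = 2.14e-10 and 4.68e-10). Dlg2, a scaffold protein, fell by 0.38 in F1 and by 0.34 in 129S6 on the log2 scale.

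**Figure D5:**
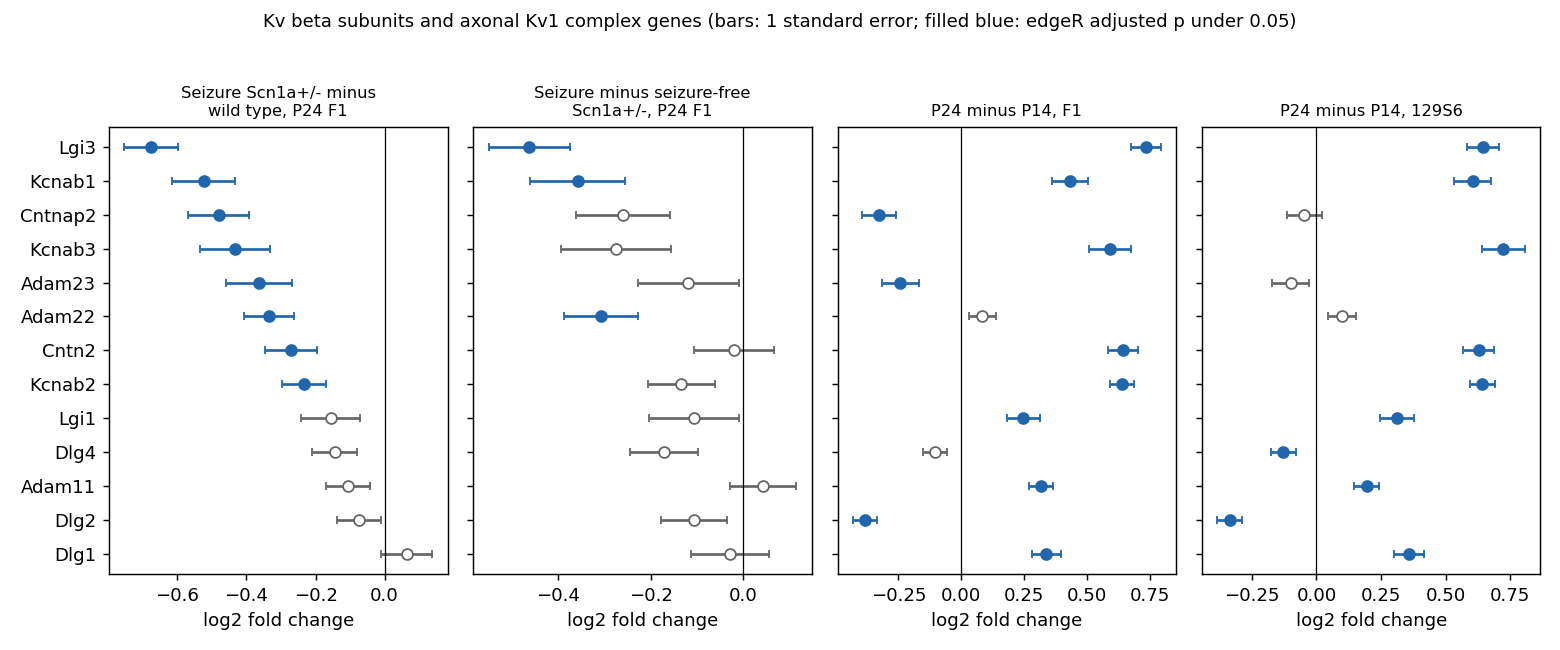
Log2 fold change (x axis) of the 13 genes for Kv1 beta subunits and the axonal Kv1 complex (rows) in 4 comparisons, with bars of 1 standard error and blue filled points for an edgeR adjusted p under 0.05. In the seizure libraries 8 of the 13 fell against wild type, and Kcnab2, Lgi3 and Cntn2 are among the 8 that rose with age in each strain.

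Kv2 channels are the partners of the Kv9 subunits. Of 9 genes for Kv2 channels and other silent subunits, 1 rose and 6 fell in seizure libraries against P24 F1 wild type, beside 12.4% and 10.1% of all genes tested, with a median of -0.39. Kcnb2, a pore-forming Kv2 subunit, had -0.66 ± 0.13 (edgeR adjusted p = 0.000258). The silent subunit Kcng3 had -1.10 ± 0.22 (edgeR adjusted p = 0.000261), Kcng2 had -0.69 ± 0.12 (3.17e-05), and Kcng1 rose (0.36 ± 0.11, edgeR adjusted p = 0.0191). Against seizure-free Scn1a+/- libraries 3 of the 9 fell and 1 rose, beside 7% and 8.72% of all genes tested. With age, 2 rose and 1 fell in F1, beside 19% and 19.4% of all genes tested, and 4 rose and 0 fell in 129S6, beside 17.3% and 17.1%. Kcng3 was among those rising in both (0.97 ± 0.17 in F1 and 0.95 ± 0.19 in 129S6).

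Of the 6 other genes of the Kv1, Kv3 and Kv9 families, 4 were tested. None of these 4 passed in either seizure comparison. With age, Kcna3 rose in F1 (0.32 ± 0.10, edgeR adjusted p = 0.0151) and Kcns3 in 129S6 (0.30 ± 0.10, edgeR adjusted p = 0.0162).

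Likeness of pattern was read as Pearson's r of log2 levels over the 9 group means, across 12288 genes, and is a description in which all genes share the same libraries. The gene most like Kcna1 was Camkk1 (r = 0.996), followed by Trf and Git1. Kcnc1 was most like Ncdn (r = 0.996), and its r with Kcna1 was 0.97, the highest among the 9 genes. Kcna2 was most like Syt14 (r = 0.986) and had r = 0.89 with Kcnc2, whose nearest gene was Ddhd2 (r = 0.992). Kcnc4 was most like 6030419C18Rik (r = 0.988), Kcna4 like Whsc1l1 (r = 0.989), Kcna6 like Ptov1 (r = 0.952), Kcns1 like Tmem260 (r = 0.963) and Kcns2 like Stk39 (r = 0.955). Kcns1 correlated with the other 8 genes at r from -0.53 to 0.63.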

How the data were processed

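RNA was prepared with TRIzol from frozen hippocampi, and the kit was TruSeq RNA Library Preparation Kit v2, per the labels' protocols. For each of the 25 libraries the authors deposited raw counts per gene symbol. Among the tools in the submitters' processing notes are HTSeq 0.6.1p1, TopHat2 2.1.0 and CASAVA, with the build mm10. Which annotation and strand setting were used is not stated there. The authors' table of scaled values was not used. Values of some listed genes are not reported here.

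The counts (24421 symbols, 0 lines naming no gene, totals of 7436442 to 25520050) entered 1 edgeR quasi-likelihood model of the 9 groups, with TMM factors and filterByExpr at a minimum count of 10 (edgeR 4.0.16 under R 4.3.3, with limma 3.58.1). It left 16 residual and 15.5 prior degrees of freedom, a common biological coefficient of variation of 7.57%, and 11 contrasts. The fit was tested on simulated data, with 100 genes changed by each size in each of several contrasts. It recovered 80 to 91 of those changed by 1 on the log2 scale and 57 to 75 of those changed by 0.5. Standard errors are the size of the log2 fold change over the square root of F. CPM, ratios and levels per length were computed here.

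Groups follow the titles and characteristics. Title numbers run over the whole series and pair no libraries. Whether pools of a group came from separate litters is unknown, so the p-values cover the spread among pools, which may be technical. No 2 libraries of a group agreed within sampling noise (chi-square per degree of freedom at least 2.48). The 9 genes and the lists were chosen with earlier results of these data known. All 9 are described in each comparison, with Scn1a as the check of labels, listed partners by smallest adjusted p, and up to 3 genes most alike in pattern among those with log2 CPM averaging 2 or more. Alternatives were DESeq2 1.42.0, RLE size factors, no filter, other sets of libraries and each library left out.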

Additional observations from a re-analysis of the deposited data

Results flagged for a closer look

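Scn1a moved in opposite directions under the same labelled contrast in 2 pairs of settings, with all libraries of one genotype above or below all of the other in each. In P24 F1 the log2 fold change of seizure-free Scn1a+/- over wild type was -0.29, while in P24 129S6 that of labelled Scn1a+/- over labelled wild type was 0.35. In 129S6 at P14 it was -0.18, against 0.35 as labelled at P24. Neither difference was tested, and both pairs rest on the same P24 129S6 libraries, whose file names give the opposite genotype. By the file names the P24 129S6 value is negative, as are those of P24 F1 and P14 129S6. All 9 channel genes also had opposite signs in P24 F1 and labelled P24 129S6. None of the 9 was flagged, as their libraries overlapped in P24 129S6.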

How the results depend on the processing

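No paired analysis was possible because the title numbers run from 1 to 25 over the series and no number is shared by 2 groups. Of the 9 channel genes, 1 passed in seizure against wild-type libraries and 0 in seizure against seizure-free libraries when only the compared groups were fitted, against 2 and 3 in the model of all groups. Leaving out 1 library gave 2 to 5 genes in seizure against wild type, 0 to 5 in seizure against seizure-free, 4 to 6 with age in each strain (main counts 6 in F1 and 7 in 129S6) and 0 to 3 between strains at P24. Kcna6 in seizure against wild type was 0.047 without seizure library 2 and -0.19 without seizure library 3. Of 1359 values under alternatives, 91 had another sign, in 30 of 99 gene and comparison pairs, none larger than 0.13 or with an edgeR adjusted p below 0.43 in the model of all groups. The cause of these changes was not tested. Over all genes, fits of the compared groups alone called 1615 genes in seizure against wild type (3579 in the model of all groups), 633 in seizure against seizure-free (2502; 1519 without seizure-free library 2), 1950 between strains at P24 (1008; 423 without P24 F1 seizure-free library 2) and 1051 at P14 (588; 380 without P14 129S6 wild-type library 2). Without the seizure libraries the strain counts were 2104 and 991, the age by strain count 42 against 1, and the P24 F1 genotype count 200 against 0, none of the 200 a channel gene. DESeq2 gave 2 and no filter 6 for age by strain, and other alternatives gave at most 9 for genotype. Precision is limited by the 2 libraries of the P24 F1 seizure-free group, by the small pools of the seizure group and by the low counts of Kcns1.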
